A study of Homo sapiens with 6 samples.

Results

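The ephrins are ligands held on the cell surface, and the Eph receptors are the receptor tyrosine kinases that bind them. The genes described here are 9 of these, EFNA1, EFNA4, EFNA5, EFNB1, EFNB2, EPHA2, EPHA4, EPHB2 and EPHB4, found by gene symbol among the 18544 genes of a table of RNA-seq read counts. They come from a list of 10 symbols. The remaining symbol, EPHB3, was not analysed here. All 9 passed the filter on low counts. HMEC-1 cells of 2 groups were compared, both grown in MCDB131 medium at 5.5 mM glucose and both carrying a lentiviral shRNA: Set7KD (n = 3 libraries), with a hairpin against Set7 (gene symbol SETD7), and NTC (n = 3 libraries), with a hairpin that targets no gene. HMEC-1 is an immortalised line from human dermal microvascular endothelium, so the results describe a single cell line. Set7 is a lysine methyltransferase that adds a methyl group to lysine 4 of histone H3 and to other proteins. The comparison asks which transcripts differ when its message is reduced.

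Ephrin-A ligands are tied to the membrane by a GPI anchor and bind mostly EphA receptors, while ephrin-B ligands cross the membrane and bind mostly EphB receptors. Because ligand and receptor both sit on cells, contact signals in both directions: forward into the cell with the receptor, reverse into the cell with the ligand. In blood vessels ephrin-B2 marks arterial endothelium and its receptor EphB4 marks venous endothelium, and this pair keeps the vessel types apart during development. EphA2 and ephrin-A1 are the A-class pair best known in endothelium, where ephrin-A1 is induced by inflammatory cytokines and EphA2 takes part in vessel assembly.

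The knockdown and the libraries were checked first. SETD7 stood at 27.8, 43.8 and 26.7 CPM (gene counts scaled to the size of the library, here by TMM) in Set7KD, against 180.5, 178 and 176 CPM in NTC. Its log2 fold change was -2.44 (standard error 0.21, edgeR adjusted p 0.000927). Libraries held 16385878 to 16953331 gene counts, and 1 count equalled 0.0585 to 0.0618 CPM. Of 13 endothelial markers written down 11 had a row, among them CDH5 at 119 ± 11.4 CPM in Set7KD and 206 ± 32.1 CPM in NTC (mean ± SD, n = 3 each) and TEK at 58.8 ± 6.41 CPM in Set7KD and 45.1 ± 2.08 CPM in NTC. Their summed level ran from 422 to 461 CPM in Set7KD and from 520 to 666 CPM in NTC; by edgeR 3 of the 11 were called higher and 4 lower, with a median log2 fold change of 0.06. Smooth muscle and pericyte markers (9 of 10 with a row) summed to 696 to 971 CPM in Set7KD and 326 to 367 CPM in NTC. Of these 9, 4 were called higher and 5 were not called, and TAGLN made up most of the Set7KD sum, with 551 ± 116 CPM in Set7KD and 96.3 ± 16.8 CPM in NTC (SD, n = 3 each). Fibroblast markers (7 of 8) summed to 3172 to 4141 CPM in Set7KD and 1465 to 2015 CPM in NTC. Of these 7, 5 were called higher and 2 were not called. COL1A1 made up most of the sum in each group, with 2861 ± 395 CPM in Set7KD and 1555 ± 270 CPM in NTC (SD, n = 3 each). All lymphatic markers (2 of 4) and leukocyte markers (2 of 5) with a row were called lower. Over all genes tested 17.6% were called higher and 18.6% lower. Markers of keratinocytes and epithelium had a row only for EPCAM, which averaged 0.755 CPM in Set7KD and 0.452 CPM in NTC. The summed levels did not overlap between the groups, and their part in the ephrin results was not tested. In bulk RNA, fewer cells of a type and less RNA per cell cannot be told apart.

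Among the 9 genes, 3 were higher in Set7KD and 1 was lower by edgeR (adjusted p under 0.05 over 18482 genes tested). EFNB2, EFNA4 and EFNB1 rose, and EPHA2 fell. Blocking on the replicate number, so that libraries of the same number are compared, gave 3 higher and 4 lower; EFNA1, EFNA5 and EPHB4 were then called lower too. Without Set7KD replicate 2 the counts were 1 higher and 2 lower, and without NTC replicate 3 they were 2 higher and 3 lower. Without both libraries numbered 2 or both numbered 3, they were 2 higher and 2 lower. Over all genes tested 36.2% were called in the fit without the block, 17.6% as higher and 18.6% as lower. In that fit calls among the 9 genes were about as frequent as among genes in general. With the block, 3826 of the 18482 genes were called higher and 4090 lower. In 6 of the 9 genes the Set7KD and NTC libraries had separate ranges of CPM, which held for 47.4% of all genes tested. The median log2 fold change of the 9 genes was -0.13, and that of all genes tested was -0.01. The genes spread from -1.24 for EFNA1 to 0.97 for EFNB2.

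**Figure D1:**
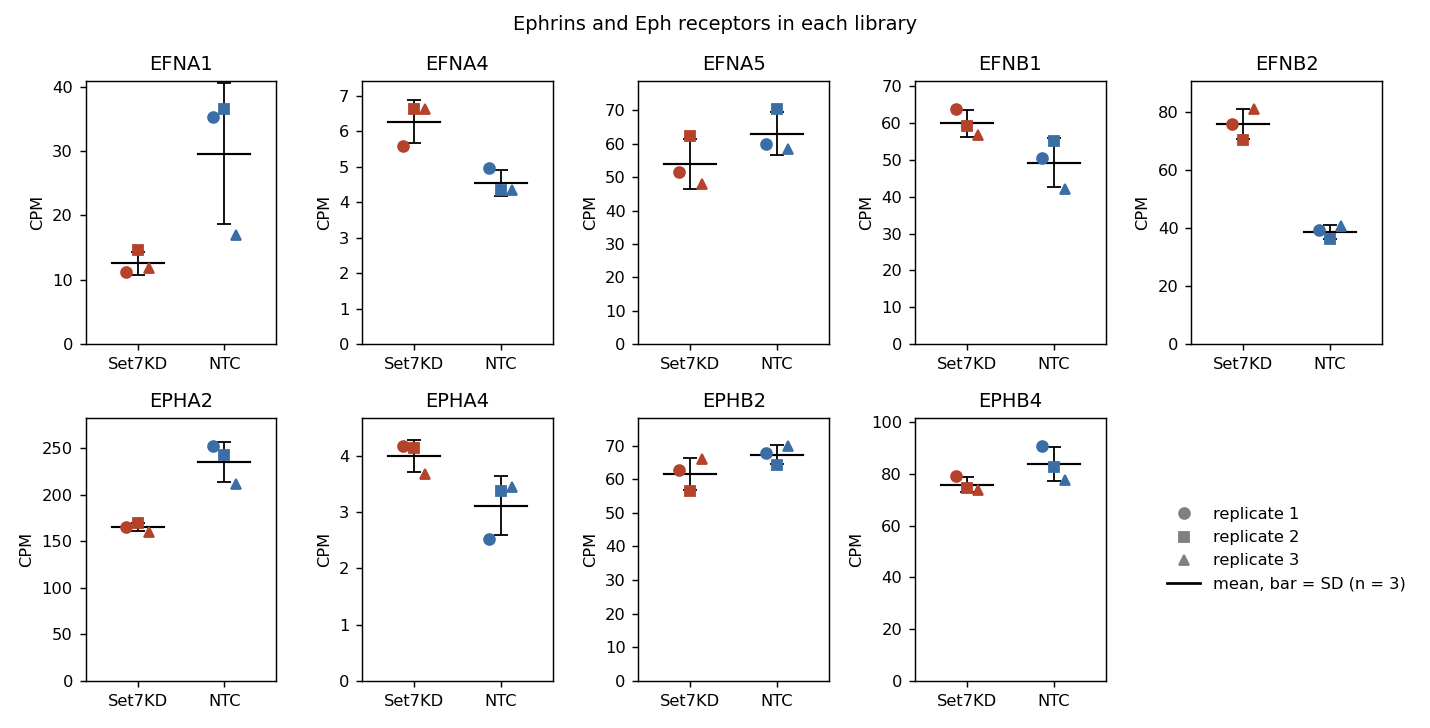
Level of each ephrin and Eph receptor in CPM (vertical axis, from 0, scaled per gene) in the 3 Set7KD and the 3 NTC libraries. Marker shapes give the replicate number, horizontal lines the mean and bars the SD. EFNB2 lies between 70.3 and 80.8 CPM in Set7KD, above 36.0 to 40.7 CPM in NTC, and EFNA1 in NTC spans 17.0 to 36.5 CPM.

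EFNB2 (ENSG00000125266.5), the arterial ligand, had the smallest p of the set. It stood at 75.8, 70.3 and 80.8 CPM in Set7KD replicates 1 to 3, against 39.4, 36.0 and 40.7 CPM in NTC replicates 1 to 3. The groups lay far apart, with each Set7KD library above every NTC library by more than the spread within either group. The fold was 1.95 (log2 fold change 0.97, standard error 0.07), with an edgeR adjusted p of 1.54e-07. Only 3.72% of all genes tested had a larger absolute log2 fold change. In the 16 alternative analyses its log2 fold change stayed between 0.92 and 1.02, and it was called in all 16. An antisense gene, AL138689.2, covers 26.2% of the exon bases of EFNB2 on the opposite strand in GENCODE 29, and no source used here says whether the counting used strand.

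EFNB1 (ENSG00000090776.5), the other transmembrane ligand of the set, rose less. Its levels were 63.7, 59.2 and 56.7 CPM in Set7KD and 50.4, 55.2 and 42.1 CPM in NTC. The groups did not overlap, but the lowest Set7KD library lay only slightly above the highest NTC library. The fold was 1.22 (log2 fold change 0.28, standard error 0.09) with an edgeR adjusted p of 0.0226. The call was lost in 5 of 16 alternative analyses: without Set7KD replicate 1 (adjusted p 0.0901), Set7KD replicate 2 (0.0577), NTC replicate 1 (0.0601) or NTC replicate 3 (0.0709), and without both libraries numbered 1 (0.194).

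Ephrin-A ligands did not move together. EFNA1 (ENSG00000169242.7) had the largest difference of the set, with 11.2, 14.7 and 11.8 CPM in Set7KD and 35.3, 36.5 and 17.0 CPM in NTC. Every Set7KD library was below every NTC library, yet NTC replicate 3 lay much nearer to the Set7KD libraries than to the other NTC libraries. The log2 fold change was -1.24 with a standard error of 0.36, and EFNA1 did not pass, with an edgeR adjusted p of 0.0604. Without NTC replicate 3 it was -1.52 with an adjusted p of 2.47e-07, and with the replicate number as a block it was -1.20 with an adjusted p of 0.0192. Across the 16 alternatives the adjusted p ran from 2.47e-07 to 0.311 and the sign was negative in all. A call was made in 5 of them, which also included DESeq2 (0.00362), a filter of at least 50 counts (0.0438) and the analysis without both libraries numbered 3 (1.07e-06).

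EFNA4 (ENSG00000243364.3), a GPI-anchored ligand at a low level, went up. It had 5.57, 6.61 and 6.62 CPM in Set7KD and 4.97, 4.34 and 4.33 CPM in NTC, with no overlap of the groups. These levels come from 92, 107 and 108 counts in Set7KD and 85, 72 and 74 counts in NTC. The log2 fold change was 0.46 (standard error 0.14, edgeR adjusted p 0.0178). The call was lost in 6 of the 16 alternatives, among them DESeq2 with an adjusted p of 0.0602 and the analyses without Set7KD replicate 2 (0.0504), Set7KD replicate 3 (0.0567) or NTC replicate 2 (0.0518). A read-through gene that joins EFNA4 to EFNA3, RP11-540D14.8, shares 15% of the exon bases of EFNA4 on the same strand, so reads there cannot be assigned with certainty. That row held 0.978 ± 0.112 CPM in Set7KD and 1.198 ± 0.262 CPM in NTC (SD, n = 3 each).

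EFNA5 (ENSG00000184349.8), an ephrin-A that is also known to bind EphB2, had 51.4, 62.2 and 47.9 CPM in Set7KD and 60.0, 70.3 and 58.6 CPM in NTC. The groups overlapped, since replicate 2 was the highest library of each group. The log2 fold change of -0.23 (95% interval -0.45 to -0.0017) did not pass, with an edgeR adjusted p of 0.1075. With the replicate number as a block it did pass, at an adjusted p of 0.00258 and a log2 fold change of -0.23. It also passed without Set7KD replicate 2 (-0.34, adjusted p 0.00387) and without both libraries numbered 2 (-0.26, adjusted p 0.012).

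EPHA2 (ENSG00000142627.9), the receptor for ephrin-A1, was the most abundant family transcript. It had 166, 169 and 160 CPM in Set7KD and 253, 243 and 211 CPM in NTC. Every Set7KD library lay below every NTC library, and the Set7KD libraries were the more alike. The fold was 0.701 (log2 fold change -0.51, standard error 0.06), with an edgeR adjusted p of 2.00e-05. EPHA2 was called lower in all 16 alternatives, with log2 fold changes of -0.59 to -0.46.

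EPHA4 (ENSG00000116106.7) encodes an EphA receptor that also binds B-class ligands. Its level was low, at 4.18, 4.14 and 3.68 CPM in Set7KD and 2.52, 3.37 and 3.45 CPM in NTC, from 43 to 69 counts per library. The groups did not overlap, but the log2 fold change of 0.36 (95% interval -0.0033 to 0.72) did not pass, with an edgeR adjusted p of 0.113, and none of the 16 alternatives called it. EPHA4 and EPHA2 thus had estimates of opposite sign, of which the EPHA2 difference was called.

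EphB receptors showed small differences. EPHB4 (ENSG00000196411.5), the venous receptor for ephrin-B2, had 79.0, 74.7 and 73.8 CPM in Set7KD and 90.8, 82.7 and 77.8 CPM in NTC, and the groups overlapped between Set7KD replicate 1 and NTC replicate 3. The log2 fold change was -0.14 (95% interval -0.28 to -0.01) with an edgeR adjusted p of 0.0918. With the replicate block EPHB4 was called lower at an adjusted p of 0.0288, and without NTC replicate 3 at 0.0306. EPHB2 (ENSG00000133216.12), which also serves ephrin-B ligands, had 62.7, 56.5 and 65.9 CPM in Set7KD and 67.8, 64.3 and 69.9 CPM in NTC. The groups overlapped, and the log2 fold change of -0.13 (95% interval -0.27 to 0.01) did not pass, with an edgeR adjusted p of 0.151.

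**Figure D2:**
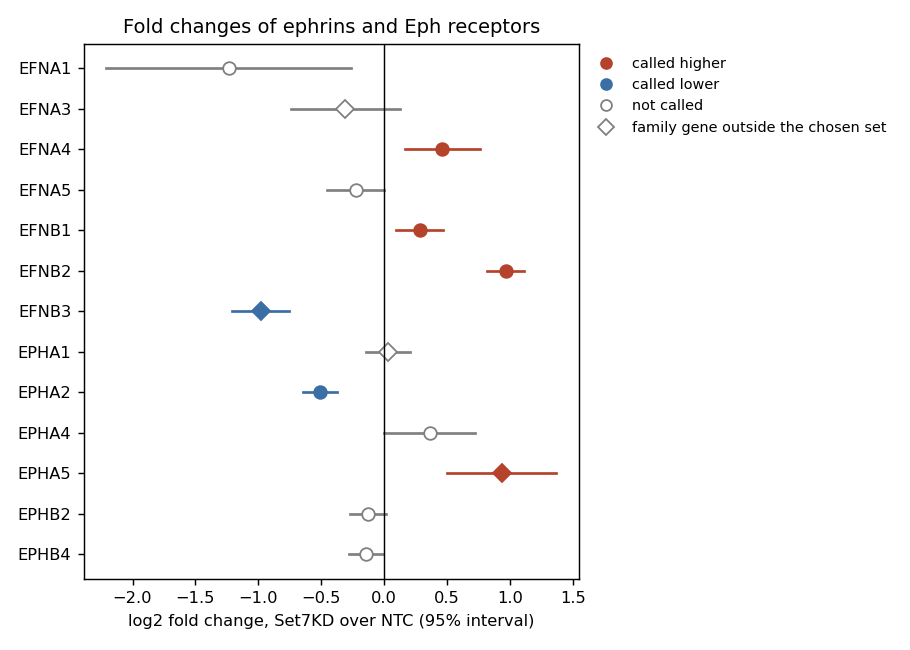
Log2 fold change of Set7KD over NTC (horizontal axis) with its 95% interval from edgeR for 13 genes of the family. Filled symbols passed an adjusted p of 0.05, open symbols did not, circles are the 9 genes of the set and diamonds 4 further family genes. EFNB2 at 0.97 and EFNB3 at -0.98 lie on opposite sides of 0, and EFNA1 at -1.24 has the widest interval.

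Other genes of the family were looked up by symbol. Of 12 written down, 5 had a row and 4 passed the low-count filter. EFNB3, the third transmembrane ephrin, had 11.1, 13.8 and 10.5 CPM in Set7KD and 24.3, 23.6 and 21.9 CPM in NTC. The groups were well separated, with a log2 fold change of -0.98 (standard error 0.11, edgeR adjusted p 5.79e-06), and EFNB3 was called lower in all 16 alternatives. Ephrin-B transcripts therefore did not share a direction: EFNB2 and EFNB1 rose and EFNB3 fell.

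EPHA5, a receptor best known from neurons, had 4.42, 4.95 and 4.53 CPM in Set7KD and 2.16, 1.75 and 3.34 CPM in NTC. It rose with a log2 fold change of 0.93 (standard error 0.20) and an edgeR adjusted p of 0.00215, and lost the call only without both libraries numbered 1 (0.0503). EPHA1 was nearly level, with 30.9 ± 2.30 CPM in Set7KD and 30.3 ± 2.31 CPM in NTC (SD, n = 3 each). Its log2 fold change was 0.03 (95% interval -0.15 to 0.20), with an edgeR adjusted p of 0.820. EFNA3 averaged 1.94 ± 0.111 CPM in Set7KD and 2.40 ± 0.383 CPM in NTC and did not pass, with an edgeR adjusted p of 0.256. It shares 44.7% of its exon bases with the read-through gene RP11-540D14.8. EPHA3 held 17, 9 and 20 counts in Set7KD and 5, 7 and 6 counts in NTC, below the filter. Without the filter its log2 fold change was 1.39 with an edgeR adjusted p of 0.0115.

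By class and role, the 5 A-class genes of the set gave 1 higher and 1 lower, with a median log2 fold change of -0.23, and the 4 B-class genes gave 2 higher and 0 lower, with a median of 0.08. The 5 ligands gave 3 higher and 0 lower (median 0.28), and the 4 receptors gave 0 higher and 1 lower (median -0.14). With the replicate block, the A-class ligands EFNA1 and EFNA5 and the B-class receptor EPHB4 were called lower too. At an unadjusted edgeR p under 0.05 the A-class genes gave 1 higher and 3 lower, the B-class genes 2 higher and 1 lower, the ligands 3 higher and 2 lower, and the receptors 0 higher and 2 lower. By DESeq2 the A-class genes gave 0 higher and 2 lower, and by limma-voom 1 higher and 1 lower. By DESeq2 the ligands gave 2 higher and 1 lower, the receptors 0 higher and 1 lower and the B-class genes 2 higher and 0 lower, and by limma-voom the ligands gave 3 higher and 0 lower, the receptors 0 higher and 1 lower and the B-class genes 2 higher and 0 lower. Over all 18482 genes tested, edgeR called 17.6% higher and 18.6% lower at an adjusted p under 0.05. DESeq2 called 2712 genes higher and 2688 lower, and limma-voom 3238 higher and 3403 lower. The share over all genes at an unadjusted p is not given here. The class and role counts leave out the further family genes, of which EFNB3 was called lower and EPHA5 higher by edgeR. Whether the classes or roles differ from each other was not tested.

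To set levels of different genes side by side, CPM were divided by the length of the merged exons of each gene in GENCODE 29. The counts were made on hg19, and the exons counted may differ from those in GENCODE 29. The orders, sums and shares below depend on these lengths. On this scale, in CPM per kb, the order of the ligands in Set7KD was EFNB1 (18.1), EFNB2 (15.1), EFNA5 (9.44), EFNA4 (4.96), EFNA1 (4.94), EFNB3 (3.66) and EFNA3 (1.02). In NTC the order was EFNB1 (14.9), EFNA1 (11.7), EFNA5 (11.04), EFNB2 (7.72), EFNB3 (7.22), EFNA4 (3.60) and EFNA3 (1.26). EFNA4 and EFNA1 overlapped between libraries in Set7KD. In NTC, EFNA1 ranged from 6.71 to 14.4 CPM per kb and overlapped EFNB1, EFNA5, EFNB2 and EFNB3, and EFNB2 also overlapped EFNB3. EFNB2 thus lay above EFNA5 in every Set7KD library and below it in every NTC library. Among receptors EPHA2 led in both groups, with 39.7 CPM per kb in Set7KD and 56.6 in NTC, followed by EPHB4 (11.8 in Set7KD and 13.02 in NTC), EPHA1 (6.52 in Set7KD and 6.40 in NTC) and EPHB2 (4.93 in Set7KD and 5.38 in NTC). EPHA4, EPHA5 and EPHA3 stayed below 1 CPM per kb in all 6 libraries.

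The make-up of the ligand transcripts differed between the groups. Summed over the 7 ligands with a row, the level was 56.7, 59.0 and 55.7 CPM per kb in Set7KD and 60.4, 62.4 and 49.2 CPM per kb in NTC, which overlap. Within that sum the A-class ligands made up 33.4, 38.8 and 34.6% in Set7KD, against 49.4, 50.03 and 43.9% in NTC, so that every Set7KD library held a smaller A-class share than every NTC library. EFNB2 alone made up 26.6, 23.7 and 28.9% in Set7KD and 13, 11.5 and 16.5% in NTC. EFNA1 made up 7.78, 9.77 and 8.36% in Set7KD and 23.0, 23.0 and 13.6% in NTC.

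Receptor transcripts summed to 65.3, 64.0 and 62.9 CPM per kb in Set7KD and 87.8, 83.4 and 75.3 CPM per kb in NTC, with no overlap. EPHA2 alone carried 61.95% of the sum in Set7KD on average and 68.9% in NTC. The A-class share of receptors was 73.5, 74.8 and 73.4% in Set7KD and 77.8, 78.4 and 76.5% in NTC. These sums and shares were computed over genes chosen with the results known and carry no test.

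**Figure D3:**
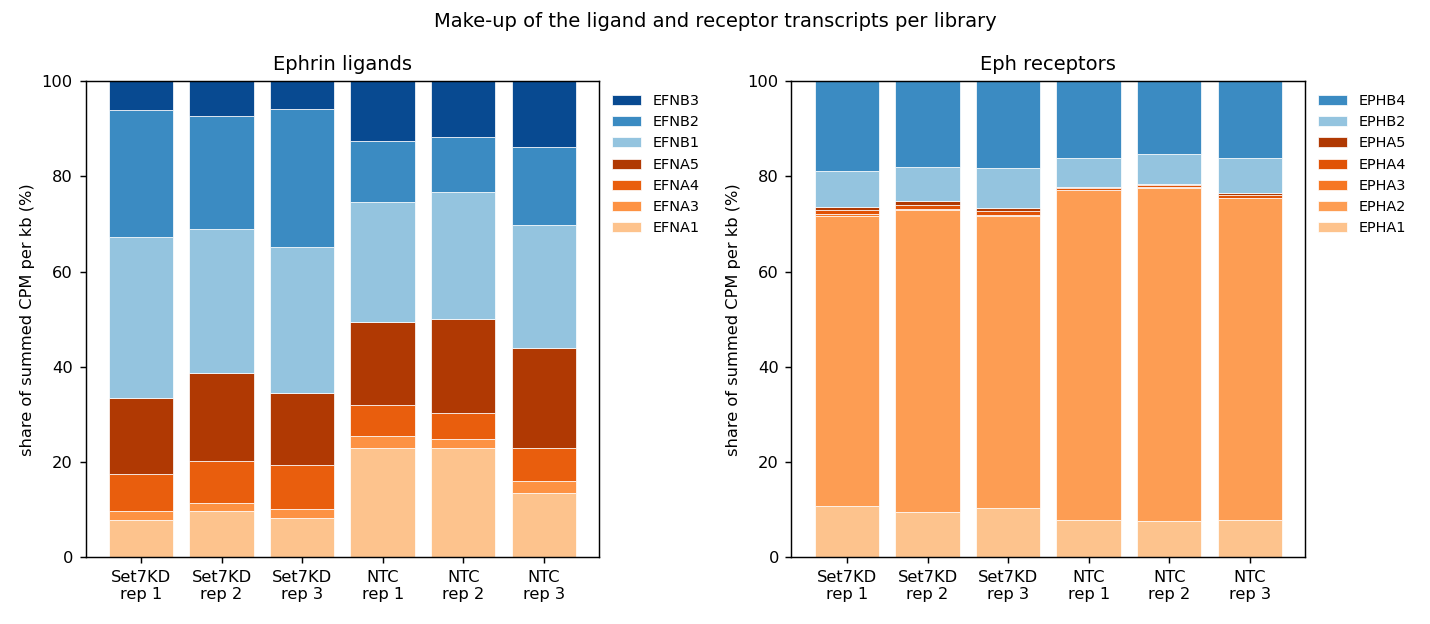
Share of each gene in the summed CPM per kb of the ephrin ligands (left) and Eph receptors (right), as stacked bars for each of the 3 Set7KD and 3 NTC libraries; A-class genes are orange and B-class genes blue. The A-class ligands take 33.4 to 38.8% in Set7KD and 43.9 to 50.03% in NTC, and EPHA2 is the main receptor in all 6 libraries.

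The arterial ligand and the venous receptor were then compared within each library, where depth cancels. The ratio of EFNB2 counts to EPHB4 counts was 0.959, 0.941 and 1.10 in Set7KD and 0.434, 0.435 and 0.523 in NTC. The libraries of the groups did not overlap, and the ratio was 2.15-fold higher in Set7KD (difference of the mean log2 ratio 1.11). The exact two-sided permutation test gave p = 0.1, which is the lowest p possible with 3 libraries a group, and 0.2 after adjustment over the 2 ratios tested. The ratio of EFNA1 to EPHA2 counts was 0.0675, 0.0866 and 0.0738 in Set7KD and 0.140, 0.150 and 0.0806 in NTC. Here the groups overlapped through NTC replicate 3, the log2 difference was -0.66, and the exact two-sided permutation test gave p = 0.2 (0.2 adjusted).

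EFNB2 and EPHB4 were placed beside lists of arterial and venous endothelial genes. These lists were chosen with earlier results of these data known, so their counts beside the shares over all genes carry no test. Of 20 arterial genes written down 17 were tested by edgeR, of which 8 rose and 7 fell, where 17.6% of all genes tested rose and 18.6% fell. Their median log2 fold change was -0.02. Besides EFNB2, the members with the smallest p were JAG1, a Notch ligand, at 140 ± 13.2 CPM in Set7KD and 63.0 ± 4.79 CPM in NTC, NRP1, a co-receptor for VEGF and semaphorins, at 215 ± 8.44 CPM in Set7KD and 142 ± 7.53 CPM in NTC, and FBLN5, an elastic fibre protein, at 11.2 ± 1.08 CPM in Set7KD and 5.35 ± 0.428 CPM in NTC (SD, n = 3 each). These rose with log2 fold changes of 1.16, 0.60 and 1.07. DLL4, the Notch ligand of arterial and tip cells, was near the floor and fell, with 0.732 ± 0.367 CPM in Set7KD and 3.12 ± 0.908 CPM in NTC (edgeR adjusted p 0.000257). CXCR4, a chemokine receptor, likewise had 0.204 ± 0.154 CPM in Set7KD and 1.23 ± 0.617 CPM in NTC (edgeR adjusted p 0.00188). Falls also occurred well above the floor. LTBP4 had 75.1 ± 6.26 CPM in Set7KD and 103 ± 8.62 CPM in NTC (edgeR adjusted p 0.000226). ACVRL1 had 47.4 ± 2.69 CPM in Set7KD and 60.8 ± 7.95 CPM in NTC (edgeR adjusted p 0.00583). HEY2, near the floor, rose, with 1.08 ± 0.0877 CPM in Set7KD and 0.354 ± 0.117 CPM in NTC (edgeR adjusted p 0.00194). The arterial genes thus moved in both directions, with EFNB2 among those that rose. The count of arterial genes that fell was 4 with a filter of at least 50 counts and 4 without both libraries numbered 1 or both numbered 2. Under that filter DLL4, NOTCH4 and CXCR4, which fell in the main fit, had too few counts to be tested.

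Of 11 venous genes written down 9 were tested, of which 4 rose and 1 fell (17.6% and 18.6% of all genes tested), with a median log2 fold change of 0.25. NRP2, a co-receptor found on veins and lymphatics, had 77.7 ± 4.83 CPM in Set7KD and 60.5 ± 2.91 CPM in NTC (SD, n = 3 each). NR2F2, the transcription factor that specifies venous identity, had 235 ± 14.1 CPM in Set7KD and 205 ± 10.5 CPM in NTC, a log2 fold change of 0.19 with an edgeR adjusted p of 0.0174. PLVAP, a protein of endothelial diaphragms, rose to 4.79 ± 1.82 CPM in Set7KD, against 0.926 ± 0.208 CPM in NTC. FLT4, a VEGF receptor shared with lymphatic endothelium, fell with a log2 fold change of -0.48. EPHB4 did not follow the rising venous genes, at -0.14. The count of venous genes that rose was 2 without NTC replicate 1 or both libraries numbered 1, and the count that fell was 2 with the replicate block or without NTC replicate 3. FLT4 lost its call without both libraries numbered 1.

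**Figure D4:**
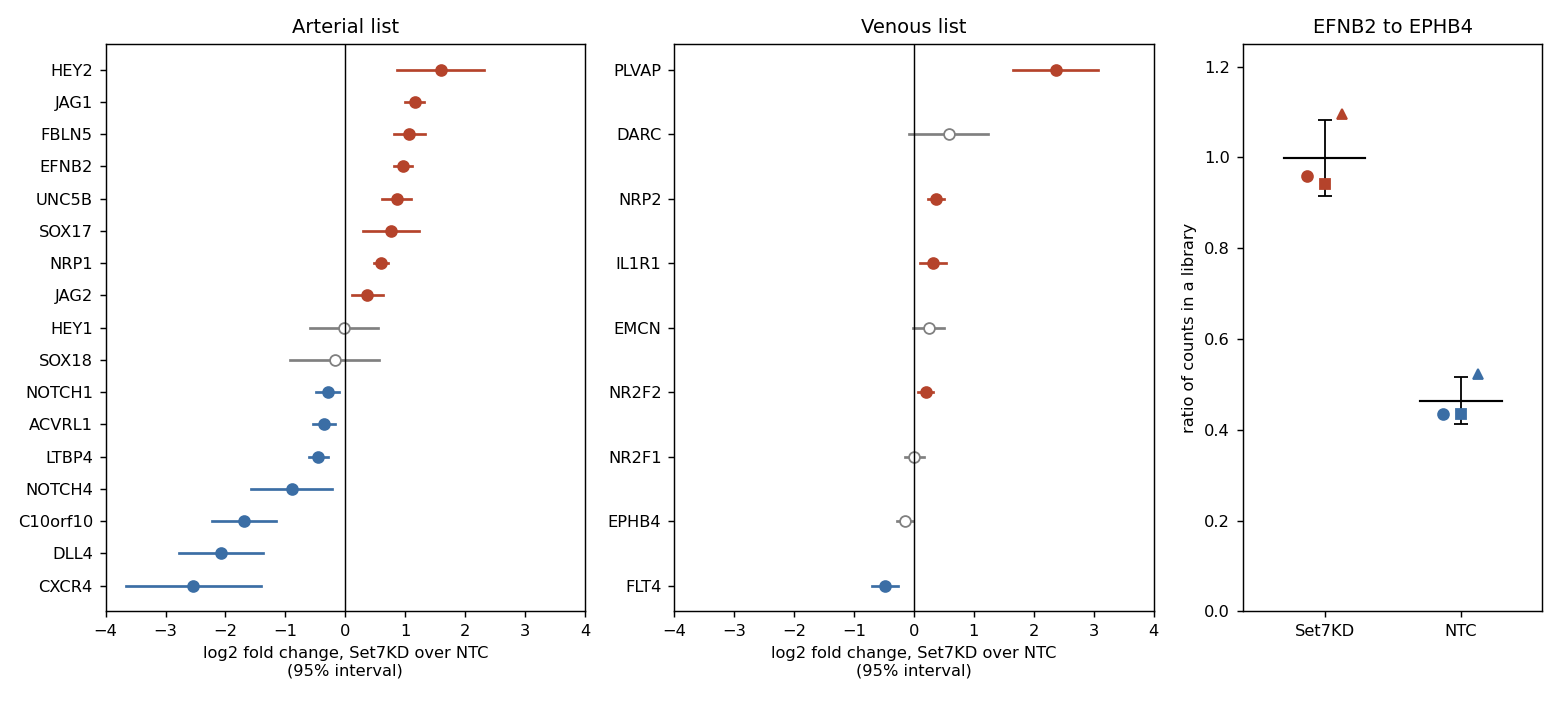
Log2 fold changes of Set7KD over NTC with 95% intervals for the tested arterial genes (left) and venous genes (middle), filled where called; right, the ratio of EFNB2 to EPHB4 counts in each library, with the mean and SD. Arterial genes lie on both sides of 0, and the ratio is 0.941 to 1.10 in Set7KD and 0.434 to 0.523 in NTC.

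Genes that act beside the receptors were counted as well, in lists also chosen with earlier results of these data known. Of 24 tested genes for forward signalling 8 rose and 5 fell (17.6% and 18.6% of all genes tested), with a median log2 fold change of 0.05. PTPN11, the phosphatase SHP2, fell to 170 ± 12.8 CPM in Set7KD, against 257 ± 0.599 CPM in NTC (SD, n = 3 each), and YES1, a SRC family kinase, fell with a log2 fold change of -0.45. CDC42, a GTPase that drives filopodia, rose to 153 ± 1.69 CPM in Set7KD, against 116 ± 3.99 CPM in NTC, and ACP1, a low molecular weight phosphatase that acts on Eph receptors, rose with a log2 fold change of 0.33. With the replicate block 9 rose and 6 fell, where 3826 of the 18482 genes tested were called higher and 4090 lower. The count of genes that rose was 5 without NTC replicate 1, and 3 rose and 2 fell without both libraries numbered 1.

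Of 12 tested genes for reverse signalling and ligand shedding 2 rose and 2 fell, a share of 33.3% called that is close to the 36.2% of all genes tested. Their median log2 fold change was -0.03. CAV1, the scaffold of caveolae, rose to 703 ± 26.6 CPM in Set7KD, against 407 ± 25.1 CPM in NTC (SD, n = 3 each). ADAM10, the protease that cuts ephrins from the cell surface, rose by a log2 fold change of 0.16 (edgeR adjusted p 0.0219). PICK1, a PDZ protein that binds B-class ephrins, fell with a log2 fold change of -0.38 (edgeR adjusted p 0.00168). With the replicate block 2 genes of this list rose and 3 fell. Only 1 gene of this list rose without Set7KD replicate 1, NTC replicate 1 or NTC replicate 2, and without both libraries numbered 1 or both numbered 2.

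EFNB2 was the gene of the set with the smallest p, and the genes with the most similar profile were sought among the 11151 genes that averaged 10 CPM or more. Likeness was the root mean square difference of log2 CPM over the 6 libraries after centring each gene. The nearest were LYPD1 (0.0255), DSTN (0.0492), which encodes the actin-severing protein destrin, and GPR39 (0.0573). LYPD1 averaged 64.3 CPM in Set7KD and 32.3 CPM in NTC, DSTN 491 CPM in Set7KD and 240.2 CPM in NTC, and GPR39 47.4 CPM in Set7KD and 24.6 CPM in NTC. LYPD1 and GPR39 share 1180 exon bases on opposite strands in GENCODE 29, so these 2 rows may hold some of the same reads.

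The promoters of the genes with the largest called rise and fall of the set, EFNB2 and EPHA2, and of EFNA1, with the largest difference, are shown from 250 bases before to 50 bases after the annotated start, from RefSeq on GRCh38.p14 (a later build than the hg19 named for the counts). They lie at chr13:106535613-106535912 on the minus strand (EFNB2), chr1:16156020-16156319 on the minus strand (EPHA2) and chr1:155127626-155127925 on the plus strand (EFNA1). Capitals mark matches on either strand to TGACGTCA (the cAMP response element), TGANTCA (AP-1), GGGCGG (the GC box), CATTCC (TEAD), TGGGAA (the core bound by RBPJ of the Notch pathway) and TATAAA (the TATA box), where matches may overlap. The motifs were chosen after the values were seen.
EFNB2: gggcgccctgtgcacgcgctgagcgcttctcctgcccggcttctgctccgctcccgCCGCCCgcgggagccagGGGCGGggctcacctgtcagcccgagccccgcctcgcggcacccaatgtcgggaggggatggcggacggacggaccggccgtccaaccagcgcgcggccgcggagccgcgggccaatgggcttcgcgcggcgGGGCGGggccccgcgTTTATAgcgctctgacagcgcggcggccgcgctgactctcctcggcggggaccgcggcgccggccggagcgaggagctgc
EPHA2: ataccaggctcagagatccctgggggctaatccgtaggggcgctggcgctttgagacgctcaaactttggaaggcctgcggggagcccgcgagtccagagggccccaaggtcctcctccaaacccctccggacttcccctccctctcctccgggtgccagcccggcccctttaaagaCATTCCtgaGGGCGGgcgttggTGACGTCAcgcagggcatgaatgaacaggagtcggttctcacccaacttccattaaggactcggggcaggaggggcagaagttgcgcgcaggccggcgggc
EFNA1: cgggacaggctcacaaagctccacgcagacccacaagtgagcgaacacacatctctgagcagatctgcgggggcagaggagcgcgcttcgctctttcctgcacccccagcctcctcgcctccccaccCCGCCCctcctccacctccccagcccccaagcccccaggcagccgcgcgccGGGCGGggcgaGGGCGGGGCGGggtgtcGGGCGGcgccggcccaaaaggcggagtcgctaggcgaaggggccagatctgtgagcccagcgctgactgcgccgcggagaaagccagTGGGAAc

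The EFNB2 window held 49 CG dinucleotides, a TATAAA match on the opposite strand and 3 GC boxes. The EPHA2 window held 20 CG dinucleotides, with 1 match each to TGACGTCA, CATTCC and GGGCGG, and the EFNA1 window 28, with 5 GC boxes and 1 TGGGAA match. Over 35116 promoter windows in the same table the median was 14 CG dinucleotides, and matches were found in 1.85% for TGACGTCA, 7.71% for TGANTCA, 45% for GGGCGG, 14% for CATTCC, 24% for TGGGAA and 11.5% for TATAAA. None of the 3 windows matched TGANTCA. A match describes letters in the window and shows no binding.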

How the data were processed

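Poly-A RNA libraries of HMEC-1 cells were grouped by their titles into Set7KD (n = 3) and NTC (n = 3). The authors deposited whole-number read counts per gene without normalization. BWA, bedtools and hg19 are named, without versions, per the submitters' processing notes. The lowest sum of counts of a gene over all libraries was 60. Genes with fewer counts had no row, and the shares over all genes leave them out. No source used here gives the strand setting. Nothing in the labels says whether the biological triplicates came from separate transductions, so a p-value covers only the spread among the libraries, which may be technical. A row of reads outside genes, 55.5 to 56.1% of each library, names no gene and was left out.

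Counts were tested over all 18482 genes kept by filterByExpr with edgeR 4.0.16 in R 4.3.3 (TMM, robust glmQLFit, glmQLFTest), with Benjamini-Hochberg adjustment. The fit was also run on simulated counts with the same biological variation for all genes and no effect of the replicate number. Such counts cannot show how the fit handles uneven spread, or a link between libraries of the same number. The standard error is the absolute log2 fold change divided by the square root of F, and intervals are 95%. DESeq2 1.42.0, limma 3.58.1 (voom), other normalizations and filters, a replicate block and left-out libraries were alternatives. Over 11151 genes, log2 CPM was centred within each group. Libraries of the same number then correlated at 0.3, 0.417 and 0.339, and other pairs across the groups at -0.356 to -0.0389. The numbers thus pair the libraries, as far as the data alone show. The calls come from the fit without the block. Blocked values stand beside the family genes whose call they change and the gene lists whose counts they change. The cell type markers were not counted with the block. All pairs of libraries within a group differed beyond counting noise (chi-square 2.98 to 9.85 times its degrees of freedom). Members and lists were chosen with earlier results of these data known. Named genes were SETD7, the family, up to 4 members of each list with the smallest p, members near 0, and the 3 genes nearest in profile. Named besides were CDH5 and COL1A1 among the markers, and LTBP4 and ACVRL1 as arterial falls above the floor. A gene that this rule names is not reported here. GENCODE 29 gave exon lengths by Ensembl identifier.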

Additional observations from a re-analysis of the deposited data

How the results depend on the processing

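Among the 9 ephrin and Eph receptor genes, 3 higher and 1 lower by edgeR became 3 higher and 4 lower with the replicate block. DESeq2 gave 2 higher and 2 lower. A filter of 50 counts or more in each library of either group gave 3 higher and 2 lower. With libraries left out there were 1 to 2 higher and 1 to 3 lower. EFNB2, EPHA2, EFNB3 and SETD7 were called in all 16 alternatives, and the block changed no call of the 13 tested family genes other than those of EFNA1, EFNA5 and EPHB4. EPHA1, not called in any alternative, turned negative without Set7KD replicate 1, NTC replicate 3 or both libraries numbered 3, within a range of -0.0239 to 0.0889. The further family genes gave 2 higher without the filter, through EPHA3, and 0 to 2 with libraries left out.

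With libraries left out the counts ranged from 3 to 8 higher and 2 to 6 lower for forward signalling, 1 to 3 higher for reverse signalling, 4 to 7 lower for arterial genes (4 with the filter of 50 counts) and 2 to 4 higher and 0 to 2 lower for venous genes (2 lower with the block). Over all genes they were 1414 to 3214 higher and 1562 to 3303 lower. The difference in the log2 ratio of EFNB2 to EPHB4 was 1.04 to 1.196 and that of EFNA1 to EPHA2 -0.94 to -0.46; in pairs the smallest exact p is 0.25, which both gave. Relative log expression and upper-quartile scaling shifted the median gene by 0.00555 and 0.00377 on the log2 scale. Apart from arterial genes left untested by the filter of 50 counts, the cause of these changes was not tested. Depth limits EPHA3, EFNA3, EPHA5, EPHA4 and EFNA4 most, with the fewest counts.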
